A study of Mus musculus with 2 samples.

Results

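Nkain2, Pcdh9, Ralyl, Nav3, Rbfox1, Brinp3, Nlgn1, Il1rapl1 and Setbp1 are very long genes that are best known from neurons. These 9 genes, of 32285 genes counted, were chosen from measured values of these libraries, because they lead the profile of some barcodes of the cancer cells. Their level in cancer cells is therefore a description and no test of it was made. Tumor cells of mice grafted with KPCA.FSTKO or with KPCA.FSTKO_hFSTL3 cells were profiled in single cells, with 1 library per genotype made from 4 pooled omental tumors collected 10 days after an intraperitoneal graft. KPCA is a mouse ovarian cancer line of fallopian tube epithelial origin that carries mutant Trp53 and overexpresses Ccne1 and Akt2. In KPCA.FSTKO cells, made from a single KPCA clone, the follistatin gene Fst is deleted, and KPCA.FSTKO_hFSTL3 is a stable clone of KPCA.FSTKO transfected with a plasmid for human FSTL3, so both genotypes lack Fst. The hosts were adult female C57BL/6J mice. The comparison of genotypes is also one of a clone, selected with geneticin, with its parent line.

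Long neural genes hold short exons that are spread over very long introns, so most of the primary transcript is removed by splicing in the nucleus. Most of them encode proteins of the neuronal surface and synapse or regulators of neuronal RNA, and many are also transcribed outside the nervous system. A droplet library counts molecules with a stretch of A bases, which can be the tail of a finished mRNA or an A-rich stretch inside an intron. Barcodes with a high share of mitochondrial transcripts are often read as stressed or broken cells, and nuclei that have lost cytoplasm are known to hold more intronic and nuclear RNA.

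The KPCA.FSTKO library held 6777 barcodes after the filters and the KPCA.FSTKO_hFSTL3 library 4041, with medians of 17253 and 15071 unique molecular identifiers (UMIs, each counting 1 captured molecule) per barcode and median mitochondrial shares of 3.54% and 10.7%. A total of 12 barcode sequences were found in both libraries. Clusters were named from lists of marker genes, and 6 of 21 clusters were cancer-like, with 3806 barcodes in KPCA.FSTKO (56.2%) and 182 in KPCA.FSTKO_hFSTL3 (4.50%). Host classes held 1898 and 286 barcodes. Low-depth clusters (901 and 35 barcodes) and an unnamed one (133 and 27) were left out. In the KPCA.FSTKO_hFSTL3 library 86.9% of the barcodes lay in clusters led by pancreatic acinar genes such as Cela3b and Prss2, which were kept out of every class and are called mixed clusters, so the values of its cancer-like class rest on a small remainder of that library. Most cancer markers were higher in cancer-like than in host barcodes: Krt18, a keratin of simple epithelia, had a UMI in 91.0% and 99.5% of cancer-like barcodes and Hmga2, an oncofetal chromatin protein, in 97.9% and 97.8%. Of the 12 markers Lcn2, a lipocalin that neutrophils also make, went the other way, at 18.4 CPM (UMIs of the gene divided by all UMIs of the class, times 1000000) against 50.7 CPM in hosts of KPCA.FSTKO and 1.305 against 10.6 CPM in KPCA.FSTKO_hFSTL3, where Ccne1 was at 4.15 against 5.31 CPM. Cldn4, a claudin of tight junctions, was at 1.75 CPM in cancer-like barcodes of KPCA.FSTKO and at 0 in those of KPCA.FSTKO_hFSTL3, where 3 counts would be 0.356 CPM. With 1 library per genotype no value has a replicate and no test between genotypes was made. The 95% intervals are exact Poisson intervals for CPM and conditional binomial ones for a ratio, and they cover counting error only.

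The 9 genes share their size, which the choice of them took into account. In the GENCODE annotation of GRCm38 they span 359 kb (Setbp1) to 1526 kb (Rbfox1, chromosome 16, from 5885355 to 7411526), with a median of 877 kb, against a median of 17.4 kb over 21625 protein-coding genes. Exons cover 0.288% (Rbfox1) to 2.77% (Setbp1) of these spans, against a median of 20.6%. A total of 7 of the 9 are longer than 500 kb, as are 1.04% of protein-coding genes. Nkain2 lies on chromosome 10 from 31689310 to 32890462, Nav3 on chromosome 10 from 109681259 to 110456204 and Pcdh9 on chromosome 14 from 93013410 to 93890679, all on the minus strand. Rbfox1 and Nlgn1 each hold 1 other annotated gene on their own strand, and how reads in those stretches were counted was not examined.

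Promoters of 6 of the 9 genes are in the RefSeq table of GRCm38.p6 (250 bases before to 50 after a transcript start), in 11 windows. The 3 windows below are shown because they span the range of CG pairs among these windows, while all 3 genes were higher in cancer-like than in host barcodes of KPCA.FSTKO, with each CG in capitals and each sequence 5′ to 3′ on the strand of its gene. Nkain2 (chr10:32889866-32890165, minus strand) holds 43 CG pairs, more than 97.4% of the 32851 promoters in the table. Pcdh9 (chr14:93890630-93890929, minus strand) holds 18, more than 70.3% of promoters. The first Rbfox1 window (chr16:5884543-5884842, plus strand) holds 3, more than 23.3% of promoters, where the median is 7. These counts describe the letters alone.
Nkain2: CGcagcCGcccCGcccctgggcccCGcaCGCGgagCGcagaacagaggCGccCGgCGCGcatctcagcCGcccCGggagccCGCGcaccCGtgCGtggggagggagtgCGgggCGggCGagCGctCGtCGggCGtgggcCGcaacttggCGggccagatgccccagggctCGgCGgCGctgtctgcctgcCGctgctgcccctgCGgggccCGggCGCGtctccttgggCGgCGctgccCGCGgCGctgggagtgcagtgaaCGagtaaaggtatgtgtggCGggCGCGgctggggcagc
Pcdh9: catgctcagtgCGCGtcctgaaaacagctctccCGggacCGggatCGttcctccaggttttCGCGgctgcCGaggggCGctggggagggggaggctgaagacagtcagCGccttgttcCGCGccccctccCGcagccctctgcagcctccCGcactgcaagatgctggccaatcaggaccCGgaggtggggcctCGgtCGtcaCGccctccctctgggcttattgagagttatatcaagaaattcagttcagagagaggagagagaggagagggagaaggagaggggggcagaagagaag
Rbfox1: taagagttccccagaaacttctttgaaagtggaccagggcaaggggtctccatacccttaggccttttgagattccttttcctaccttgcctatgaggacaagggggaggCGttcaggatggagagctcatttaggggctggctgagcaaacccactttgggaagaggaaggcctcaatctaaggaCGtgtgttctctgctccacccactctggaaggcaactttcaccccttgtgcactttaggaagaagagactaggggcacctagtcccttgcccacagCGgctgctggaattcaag

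In cancer-like barcodes of KPCA.FSTKO the 9 genes together were at 1145 CPM (95% interval 1138 to 1151, 123890 UMIs), taken over all UMIs of the class. Host classes together were at 322 CPM, so the cancer-like level was 3.56 times (3.48 to 3.64) as high. In KPCA.FSTKO_hFSTL3 the values were 641 CPM (624 to 658, 5404 UMIs) and 171 CPM, a ratio of 3.75 (3.48 to 4.03). On the log2 scale that ratio was 1.91, and it was 1.31 without the cancer-like cluster 7 and 0.36 when the barcodes of mixed clusters were added to the cancer-like class, an alternative chosen after seeing the data. The pooled host levels rest in large part on few barcodes. The 5% of host barcodes with most UMIs of the genes held 57.3% of them in KPCA.FSTKO and 56.7% in KPCA.FSTKO_hFSTL3. The median host barcode was at 55.1 and 0 CPM, against 836 and 447 CPM for the median cancer-like barcode. The host classes were not uniform. In KPCA.FSTKO the summed level was 718 CPM in endothelial-like, 529 in stromal-like, 448 in neutrophil-like, 286 in pericyte-like, 281 in T/NK-like, 166 in macrophage-like and 135 in erythroid-like barcodes. The intervals of the pericyte-like (248 to 329) and T/NK-like (243 to 324) levels overlap, as do those of the macrophage-like (159 to 173) and erythroid-like (97.2 to 182) levels. In KPCA.FSTKO_hFSTL3 stromal-like barcodes were at 429 CPM, pericyte-like at 196, endothelial-like at 154 and macrophage-like at 21.8. Macrophage-like barcodes served as the background class for shares of barcodes with a UMI. At least 1 UMI of the 9 genes was found in 96.5% of cancer-like barcodes of KPCA.FSTKO (median 26996 UMIs) and in 40.7% of macrophage-like ones (median 12258 UMIs). After thinning every barcode to 1000 UMIs which left out 20 and 21 shallower ones, the shares were 56.6% and 7.68%.

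**Figure D1:**
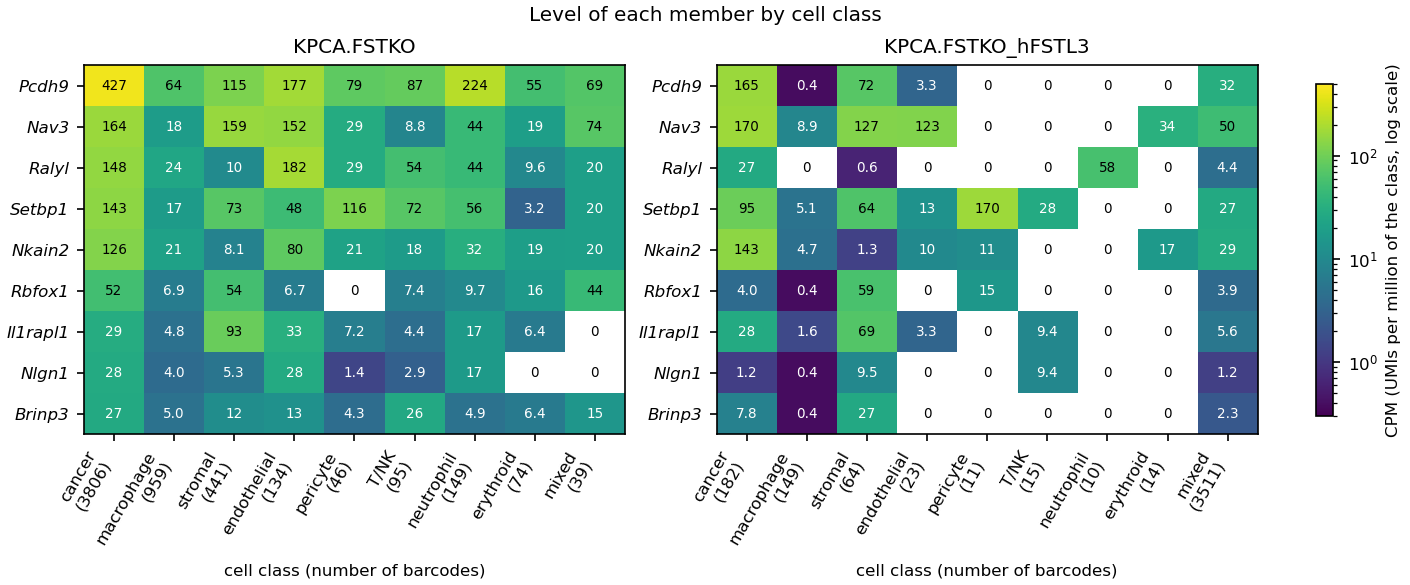
Heat maps of the level (CPM, logarithmic colour scale, value printed in each field) of the 9 genes in 9 cell classes, with KPCA.FSTKO on the left and KPCA.FSTKO_hFSTL3 on the right; the number of barcodes stands under each class and white fields had 0 UMIs. Pcdh9 in cancer-like barcodes of KPCA.FSTKO has the highest value, 427 CPM, and Nav3 is near its cancer-like level of 164 CPM in stromal-like (159) and endothelial-like (152) barcodes.

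Set against all host classes together, 8 of the 9 genes were at least 2 times higher in cancer-like barcodes of KPCA.FSTKO, and 0 were at least 2 times lower. Over the 14185 genes with at least 100 UMIs in that comparison, 16.9% were higher by this rule and 19.4% were lower. Since the genes were chosen from cancer barcodes, the count has no bearing on how unusual they are. In KPCA.FSTKO_hFSTL3, 8 of them reached 100 UMIs and 5 were higher, with Rbfox1 lower, where 15.7% of 9912 genes were higher and 17.8% were lower.

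Among the surface proteins, Pcdh9, a protocadherin of neuronal contacts, had the highest cancer-like level of the 9 genes in KPCA.FSTKO. It had there 427 CPM in cancer-like barcodes against 89.9 CPM in host barcodes, and in KPCA.FSTKO_hFSTL3, where Nav3 was at 169.8 CPM, 165 against 23.5 CPM. Per 100 kb of gene span its cancer-like level in KPCA.FSTKO was 48.7 CPM, also the highest of the 9, with Setbp1 next at 39.9. Nkain2, a membrane protein that binds the sodium pump, had 126 against 19.8 CPM in KPCA.FSTKO and 143 against 4.29 CPM in KPCA.FSTKO_hFSTL3, so its host levels lay further apart than its cancer-like ones. Nlgn1 encodes neuroligin, which binds neurexins across the synapse. It was at 27.6 CPM in cancer-like barcodes of KPCA.FSTKO (2986 UMIs) against 5.69 CPM in hosts, but only 10 UMIs (1.19 CPM) were counted in cancer-like barcodes of KPCA.FSTKO_hFSTL3, below the host level of 3.47 CPM. Il1rapl1, a synaptic receptor of the interleukin-1 receptor family, stood apart. Its cancer-like level of 29.3 CPM in KPCA.FSTKO was 0.841 times (0.778 to 0.909) the host level of 34.8 CPM. In KPCA.FSTKO_hFSTL3 the order was the opposite, with 28.4 CPM in cancer-like barcodes against 23.3 CPM in hosts, a ratio of 1.22 whose interval (0.971 to 1.54) holds 1.

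Among the regulators of RNA, Ralyl, a relative of the hnRNP C proteins, had 148 CPM in cancer-like barcodes of KPCA.FSTKO against 29.0 CPM in hosts. In KPCA.FSTKO_hFSTL3 it was at 26.9 CPM in cancer-like barcodes, while hosts held 2 UMIs in all (a ratio of 65.9, interval 18.1 to 548). Rbfox1, a splicing factor of neurons and muscle, was at 52.2 and 22.01 CPM in KPCA.FSTKO. In KPCA.FSTKO_hFSTL3 the order was the opposite, with 4.03 CPM in cancer-like (34 UMIs) and 20.01 CPM in host barcodes. Of those 98 host UMIs, 93 were in stromal-like barcodes.

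The remaining genes have other roles. Nav3, a neuron navigator that binds microtubule ends, had 164 against 70.5 CPM in KPCA.FSTKO and 169.8 against 53.5 CPM in KPCA.FSTKO_hFSTL3. Setbp1, a nuclear protein that binds SET, had 143 against 41.9 CPM and 94.9 against 33.9 CPM. Brinp3, named for its induction by BMP and retinoic acid in neural cells, was at 26.9 and 8.07 CPM in KPCA.FSTKO, and in KPCA.FSTKO_hFSTL3 its levels of 7.83 and 8.78 CPM had overlapping intervals (6.05 to 9.96 and 6.35 to 11.8). The order of the cancer-like levels in KPCA.FSTKO was thus Pcdh9, Nav3, Ralyl, Setbp1, Nkain2, Rbfox1, Il1rapl1, Nlgn1 and Brinp3, and by counting error alone Ralyl (146 to 151 CPM) and Setbp1 (141 to 145) did not overlap while Nlgn1 (26.6 to 28.6) overlapped both Brinp3 (25.9 to 27.9) and Il1rapl1 (28.3 to 30.3).

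The host classes differed in which of the genes they held. In stromal-like barcodes of KPCA.FSTKO, Nav3 was at 159 CPM, Pcdh9 at 115, Il1rapl1 at 93.0, Setbp1 at 73.1 and Rbfox1 at 54.1. Il1rapl1 was there at 317% of its cancer-like level, Rbfox1 at 104% and Nav3 at 96.6%, while Nkain2 was at 6.42% and Ralyl at 6.96%. In KPCA.FSTKO_hFSTL3 Nav3 led the stromal-like barcodes too, at 127 CPM, with Pcdh9 at 71.7, Il1rapl1 at 68.6, Setbp1 at 64.1 and Rbfox1 at 59.1. Brinp3 was higher there than in stromal-like barcodes of KPCA.FSTKO, at 26.7 against 11.5 CPM (2.32 times, 1.56 to 3.39), and Nkain2 was lower at 1.27 against 8.07 CPM (0.157 times, 0.0186 to 0.594). For Nlgn1, at 9.52 against 5.29 CPM, the interval of the ratio (0.924 to 3.33) holds 1. Cancer markers in stromal-like barcodes of KPCA.FSTKO had a median of 13.8% of their cancer-like level, below that of 7 of the 9 genes. Endothelial-like barcodes of KPCA.FSTKO were led by Ralyl (182 CPM, 158 to 207), Pcdh9 (177) and Nav3 (152), and of these Nav3 alone had a like level in KPCA.FSTKO_hFSTL3 (123 CPM), where Ralyl had 0 UMIs in 23 endothelial-like barcodes (3 counts would be 10.0 CPM) and Pcdh9 had 1. Of the 12 cancer markers, 2 (Krt18 and Hmga2) were raised in the endothelial-like cluster over both libraries. In the pericyte-like, T/NK-like and neutrophil-like clusters 2, 3 and 5 were raised. The part of free RNA or doublets in these levels was not tested. Setbp1 led the pericyte-like barcodes of both libraries, at 116 CPM (81 UMIs) and 169.5 CPM (45 UMIs).

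Macrophage-like barcodes showed another pattern. In the larger macrophage-like cluster of KPCA.FSTKO (855 barcodes) each of the 9 genes was at 3.95% (Pcdh9) to 6.40% (Rbfox1) of its cancer-like level, with a median of 4.38%. The 12 cancer markers had a median of 5.35% in the same barcodes, with Krt18 at 4.63% and Hmga2 at 3.35%. In the smaller cluster, number 18 (104 barcodes), in which 7 of the 12 cancer markers were raised, the 9 genes were at 58.5% (Nav3) to 117% (Brinp3) of their cancer-like level and the cancer markers at a median of 60.4%. In KPCA.FSTKO the make-up of the summed UMIs in macrophage-like barcodes was close to that in cancer-like ones: Pcdh9 made up 38.8% and 37.3%, Ralyl 14.8% and 13.0%, Nkain2 12.6% and 10.98% and Nav3 10.9% and 14.4%. In stromal-like barcodes Pcdh9 made up 21.7%, Ralyl 1.95%, Nkain2 1.53% and Nav3 30.0%. In KPCA.FSTKO_hFSTL3, where macrophage-like barcodes held 56 UMIs of the genes, Pcdh9 made up 1.79% of them (0.0452 to 9.55) against 25.7% in cancer-like barcodes, Nav3 41.1% (28.1 to 55.0) against 26.5% and Nkain2 21.4% (11.6 to 34.4) against 22.3%. Without cluster 18 the ratio of cancer-like over host level in KPCA.FSTKO was 2.06 on the log2 scale, against 1.83 with it. Doublets were kept, and the part of free RNA or doublets in the levels of macrophage-like and other host barcodes was not tested.

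**Figure D2:**
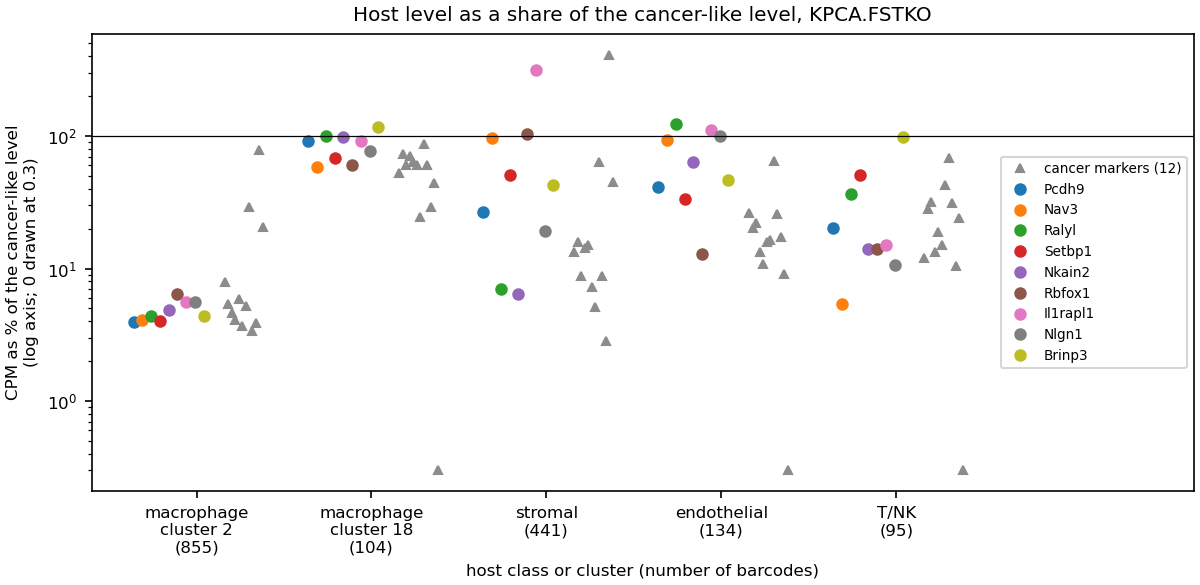
Level of each of the 9 genes (coloured points) and of 12 cancer markers (grey triangles) in host classes of KPCA.FSTKO, as a percentage of the cancer-like CPM on a logarithmic axis, with values of 0 drawn at 0.3 and a line at 100%. In macrophage-like cluster 2 the 9 genes lie between 3.95% and 6.40%, among most of the cancer markers, while in stromal-like barcodes they range from 6.42% to 317%.

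In the mixed clusters of KPCA.FSTKO_hFSTL3 (3511 barcodes) the 9 genes together were at 155 CPM (151 to 158), and the cancer-like level of that library was 4.14 times (4.00 to 4.29) as high. The 6 genes with at least 100 cancer-like UMIs were at 16.2% (Ralyl) to 29.3% (Nav3) of their cancer-like level there, with a median of 20.03%. In the same barcodes 9 cancer markers had a median of 73.8% of their cancer-like level, with Krt18 at 92.8% and Hmga2 at 27.6%. The median mitochondrial share of these barcodes was 11.4%, against 3.57% in the cancer-like class of that library.

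Within the cancer-like class of KPCA.FSTKO the level differed by cluster. Cluster 7 (479 barcodes) was at 4729 CPM for the 9 genes together, cluster 1 (1390 barcodes) at 1619, cluster 6, led by replication genes such as Mcm3, at 739, cluster 8, led by mitotic genes such as Cenpf and Mki67, at 554, cluster 3 at 489 and cluster 16 (115 barcodes) at 41.1. The 9 genes were left out of the variable genes used for clustering, but Nkain2, Ralyl and Nav3 are among the top 10 genes of cluster 7 and Pcdh9, Ralyl, Setbp1 and Nkain2 among those of cluster 1, so the levels only describe these clusters. All 9 genes had their highest cancer-like level in cluster 7: Pcdh9 at 1430.5 CPM, Nav3 at 750.2, Ralyl at 726, Nkain2 at 573, Setbp1 at 532, Rbfox1 at 277, Il1rapl1 at 159, Brinp3 at 148 and Nlgn1 at 133. Against the other cancer-like clusters all 9 were at least 2 times higher, as were 34.0% of 12918 genes. In KPCA.FSTKO_hFSTL3 cluster 7 (46 barcodes) was again the highest at 1484 CPM, followed by cluster 1 at 812, cluster 6 at 551, cluster 3 at 349.5 and cluster 8 at 338 (the interval of cluster 3, 329 to 371, overlaps that of cluster 8, 311 to 366). Ralyl did not follow the sum there, with 11.6 CPM in cluster 7 (20 UMIs) against 74.4 in cluster 1, 25.8 in cluster 3, 24.9 in cluster 6 and 24.1 in cluster 8, and Setbp1 was at 181 CPM in both cluster 7 and cluster 1.

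Cluster 7 differed from the rest in more than these genes. Its barcodes in KPCA.FSTKO had a median of 6057 UMIs, a mitochondrial share of 8.61%, a share of ribosomal protein genes of 3.38% and a share of the nuclear RNA list (Malat1, Neat1 and 4 more) of 3.98%, while in cluster 1 these were 28544.5 UMIs, 4.05%, 19.7% and 1.71%. The barcodes of cluster 7 in KPCA.FSTKO_hFSTL3 were deeper, with a median of 41163.5 UMIs, a mitochondrial share of 4.15%, a ribosomal share of 13.1% and a nuclear share of 2.15%. Cluster 16 was at the other end, with a ribosomal share of 53.8% and a nuclear share of 0.0286%. Of the UMIs of Il1rapl1 in the cancer-like class of KPCA.FSTKO_hFSTL3, 207 of 239 were in cluster 7, and of those of Brinp3 55 of 66. Keratins were weaker in cluster 7 of KPCA.FSTKO than in the whole cancer-like class of that library. Krt18 had a UMI in 48.2% of its barcodes, at 266 against 874 CPM, and Krt19 was at 216 against 998 CPM. Of the other cancer markers, Hmga2 (4147 against 1794 CPM) and Pax8 (39.2 against 10.3 CPM) were higher in cluster 7 than in the whole class. Cldn4 was at 2.57 (11 UMIs) against 1.755 CPM, but had a UMI in 1.46% against 2.10% of barcodes. Wfdc2 (135 against 453 CPM), Msln (428 against 541.5 CPM), Areg, Ccne1 and Lcn2 were lower in cluster 7.

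**Figure D3:**
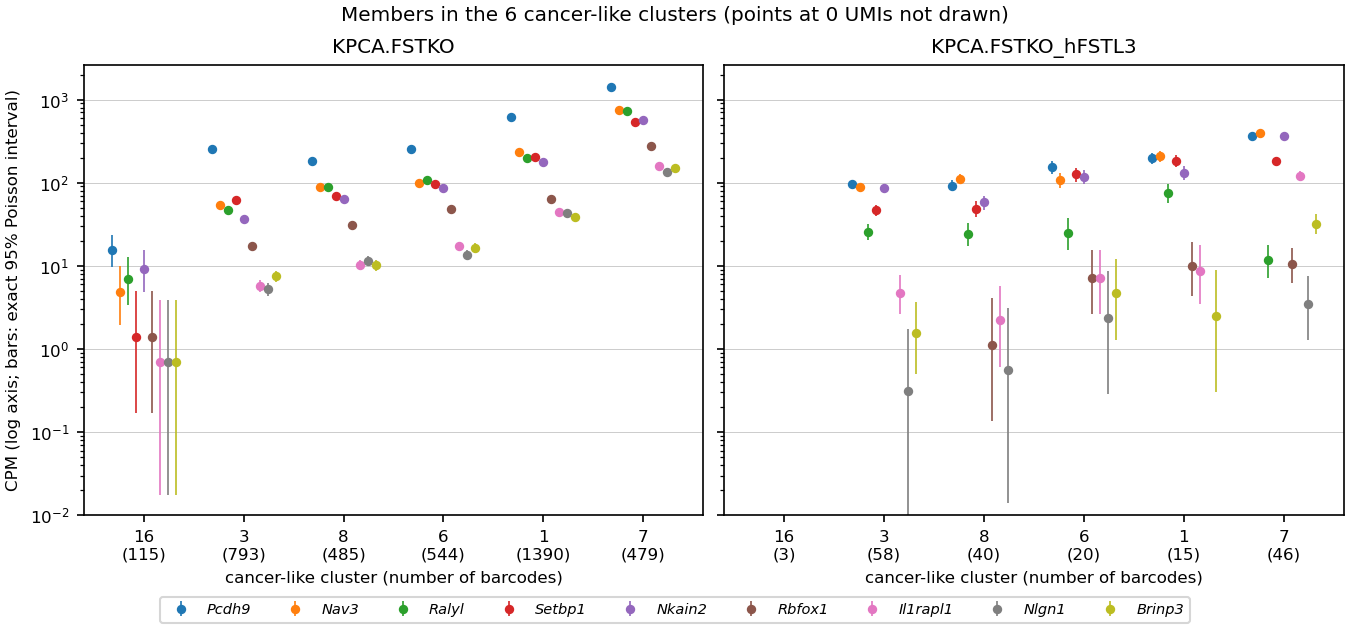
Level of the 9 genes (CPM on a logarithmic axis, bars showing exact 95% Poisson intervals) in the 6 cancer-like clusters, with KPCA.FSTKO on the left and KPCA.FSTKO_hFSTL3 on the right and the number of barcodes under each cluster. All 9 genes are highest in cluster 7 of KPCA.FSTKO and lowest in cluster 16, where the genes together were at 41.1 CPM.

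The level of the 9 genes was higher in cancer-like barcodes with a higher mitochondrial share. In KPCA.FSTKO the genes together were at 803 CPM in 511 barcodes with a share under 2%, at 1006 CPM from 2 to 5% (2244 barcodes), at 1453 CPM from 5 to 10% (731 barcodes) and at 3813 CPM from 10 to 20% (320 barcodes). Pcdh9 went from 286 CPM in the lowest to 1314 CPM in the highest bin, Nkain2 from 87.8 to 425, Nlgn1 from 10.4 to 105 and Il1rapl1 from 11.9 to 125. All 9 genes were at least 2 times higher in the highest than in the lowest bin, with a median log2 ratio of 2.27. For the sum it was 2.25, but 1.15 between the highest and lowest quartile of barcodes, 1.31 as a mean over barcodes and 1.29 after thinning to 1000 UMIs. Among the 9786 genes with at least 100 UMIs in both bins together, 32.0% were higher and 19.4% lower, with a median log2 ratio of 0.38. Of the highest bin, 221 barcodes belonged to cluster 7. Without that cluster the 4 levels were 577, 975, 1304 and 2017 CPM, and within it they were 5324, 3816, 4975 and 4826 CPM, with no order by mitochondrial share. In cluster 1 the levels were 1406, 1558, 1781.5 and 2498 CPM. In cluster 8 they were 322, 566, 865 and 477 CPM, the last from 9 barcodes.

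Other classes and the other library showed this relation in part. In KPCA.FSTKO_hFSTL3 the cancer-like levels were 259.6 CPM under 2%, 673.5 from 2 to 5%, 925 from 5 to 10% and 729 from 10 to 20%, the last from 6 barcodes with an interval of 592 to 887. In stromal-like barcodes of KPCA.FSTKO the levels were 490.2, 438.5, 695.5 and 1409 CPM, with a Spearman's rho of 0.207 between the summed level and the mitochondrial share over 441 barcodes. In macrophage-like barcodes the levels pooled by bin were 62.0, 103, 301 and 766 CPM, but the share of barcodes with a UMI was 43.0%, 41.0%, 38.1% and 41.2%, and rho over the 959 barcodes was -0.008. In the mixed clusters of KPCA.FSTKO_hFSTL3 they were 76.9, 164, 203 and 140.1 CPM, with 2278 of 3511 barcodes in the highest bin, so the highest mitochondrial share did not come with the highest level there.

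Shallow barcodes of the cancer-like class had the higher levels in KPCA.FSTKO. The genes together were at 3464 CPM in 388 barcodes with under 5000 UMIs, 2383 CPM from 5000 to 15000 (583 barcodes), 1277 CPM from 15000 to 40000 (1914 barcodes) and 806 CPM from 40000 UMIs (921 barcodes). All 9 genes were at least 2 times higher under 5000 than from 40000 UMIs, as were 25.8% of 11537 genes. Ralyl went from 570.0 to 101 CPM and Setbp1 from 440.0 to 102. Without cluster 7, 186 of the 388 barcodes with under 5000 UMIs were left and the 4 levels were 1276, 1205, 1170.4 and 795 CPM. The low-depth clusters 4 and 12, with medians of 1558.5 and 3202 UMIs, were kept out of the class by the naming rule. In each of them 7 of the 12 cancer markers were raised, but the 9 genes were at only 199.6 and 127.5 CPM over both libraries. The relation to depth therefore holds for the class as named and not for all shallow barcodes with cancer markers. In KPCA.FSTKO_hFSTL3, where 12 cancer-like barcodes had under 15000 UMIs, the shallow bins were not higher, with 171 CPM (21 to 617; 2 UMIs) under 5000 and 251 CPM up to 15000, against 939 CPM up to 40000 and 569 CPM above.

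Depth and mitochondrial share were then crossed in KPCA.FSTKO. Among barcodes with 15000 to 40000 UMIs the levels by mitochondrial bin were 855.5, 1155, 1665 and 3452 CPM, and from 40000 UMIs 519, 827, 919 and 1465 CPM, the last from 5 barcodes. In KPCA.FSTKO_hFSTL3 barcodes with 15000 to 40000 UMIs were at 199.9, 742, 1638 and 895 CPM, the last from 3 barcodes. The 111 of 182 barcodes with 40000 UMIs or more were there at 280.5, 665, 532 and 433 CPM, the last from 1 barcode, so the level did not go up beyond the bin of 2 to 5%. Among KPCA.FSTKO barcodes with under 5000 UMIs they were 4697, 2757, 2762 and 4238 CPM, without an order. Over the 3806 barcodes, which share 1 library, Spearman's rho of the summed level was 0.298 with the mitochondrial share, -0.276 with the number of UMIs, -0.624 with the ribosomal protein share and 0.617 with the share of the nuclear RNA list. Without cluster 7 these were 0.262, -0.101, -0.520 and 0.563. For single genes over the 3806 barcodes, rho with the number of UMIs was near 0, from -0.106 (Pcdh9) to 0.069 (Rbfox1). With the mitochondrial share it was 0.064 (Rbfox1) to 0.243 (Setbp1). The level and the shares are fractions of the same total, and the number of UMIs is that total, so these values are tied in part by construction.

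**Figure D4:**
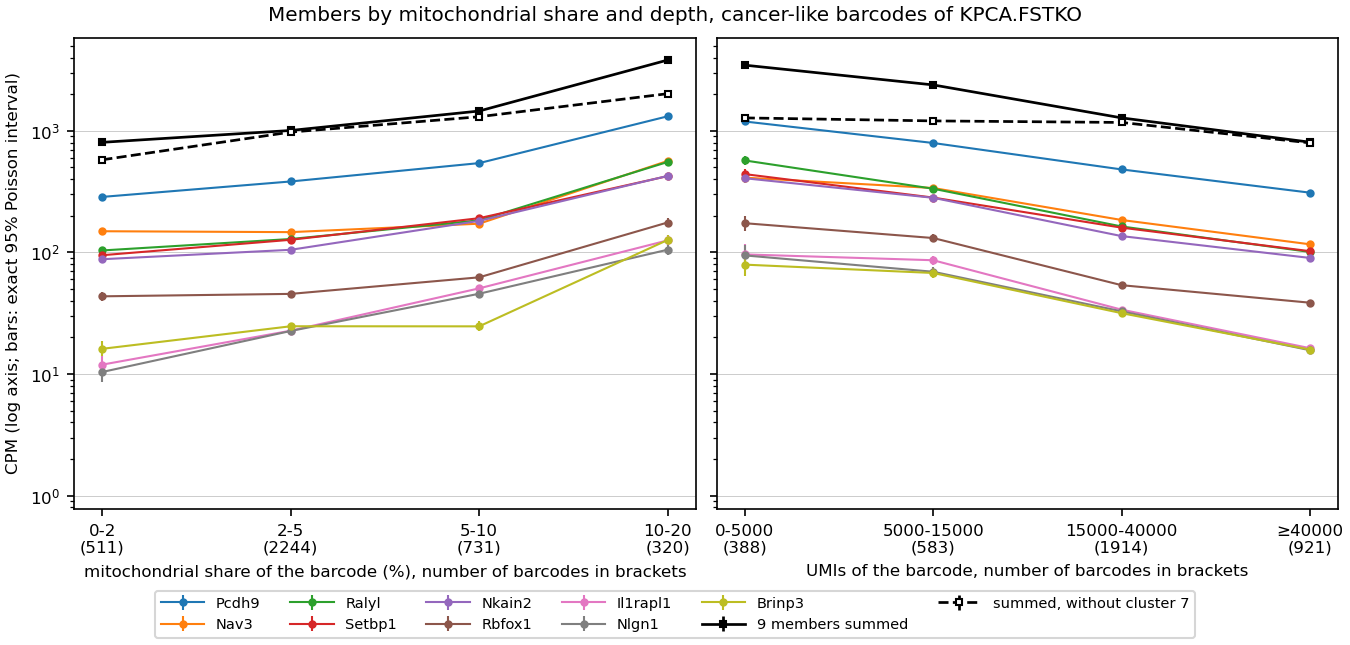
Level of the 9 genes (coloured lines) and their sum (black, dashed without cluster 7) in cancer-like barcodes of KPCA.FSTKO, as CPM on a logarithmic axis with exact 95% Poisson intervals, by mitochondrial share (left) and by UMIs of the barcode (right). The sum goes from 803 to 3813 CPM with the mitochondrial share and from 3464 to 806 CPM with depth, and without cluster 7 from 577 to 2017 and from 1276 to 795 CPM.

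The genes were found in the same barcodes to a moderate degree. Over the 36 pairs of genes, Spearman's rho of their CPM across the cancer-like barcodes of KPCA.FSTKO was 0.059 (Nav3 with Nlgn1) to 0.374 (Pcdh9 with Setbp1), with a median of 0.212. In sparse counts such values are low by nature and are given as a description. A UMI of 4 or of 5 of the genes was the most common case, in 741 barcodes each, 36 barcodes held all 9 and 135 held none. The 5% of barcodes with most UMIs of the genes held 23.2% of them, and 6.37% of all UMIs of the class. In 64 barcodes (1.68%) the 9 genes made up over 1% of all UMIs. Per gene, the share of cancer-like barcodes with a UMI ranged from 16.9% (Nlgn1) to 82.2% (Pcdh9), against 2.82% and 18.8% in macrophage-like barcodes. Thinned to 1000 UMIs, the shares for Pcdh9 were 29.6% and 3.20%.

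Between the genotypes, the 9 genes differed in how far their cancer-like levels lay apart. Nkain2 (1.14 times, 1.07 to 1.21), Nav3 (1.03, 0.978 to 1.09) and Il1rapl1 (0.968, 0.845 to 1.10) had the ratios of KPCA.FSTKO_hFSTL3 over KPCA.FSTKO nearest to 1, but these moved with the barcodes taken. Setbp1 was at 0.663 times, Pcdh9 at 0.386, Brinp3 at 0.291, Ralyl at 0.182, Rbfox1 at 0.0773 and Nlgn1 at 0.0430 times the KPCA.FSTKO level. By the rule of 2 times, 5 of the 9 were lower and 0 higher in KPCA.FSTKO_hFSTL3, where 6.99% of 13058 genes were lower and 3.42% were higher. The genes were chosen from cancer barcodes, and the cancer-like class held 3806 barcodes of KPCA.FSTKO against 182 of KPCA.FSTKO_hFSTL3. The choice may therefore favour genes that are high in KPCA.FSTKO, and the count has no bearing on how unusual they are. The sum was at 0.560 times (0.545 to 0.575).

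The cancer-like barcodes of the libraries differ in depth, with medians of 26996 and 46179 UMIs, and in make-up, so the ratios were also taken within clusters. In clusters 1, 3, 6, 7 and 8 the ratio of the sum was 0.314 (cluster 7) to 0.745 (cluster 6). Pcdh9, Ralyl, Rbfox1, Brinp3, Nlgn1 and Il1rapl1 were below 1 in all 5, Setbp1 in 4, Nkain2 in 3 (range 0.627 to 2.39) and Nav3 in 2 (0.534 to 1.63). For Il1rapl1 the ratios within clusters ran from 0.198 to 0.809, while cluster 7, where it is highest, held 46 of 182 cancer-like barcodes in KPCA.FSTKO_hFSTL3 and 479 of 3806 in KPCA.FSTKO. Without cluster 7 the ratios were 0.816 (0.750 to 0.887) for Nkain2, 0.787 for Nav3 and 0.199 (0.136 to 0.282) for Il1rapl1. From 40000 UMIs they lay above 1, at 1.41 (1.31 to 1.52), 1.24 and 1.66 (1.41 to 1.96), and at a mitochondrial share of 2 to 5% they were 1.40, 1.16 and 1.52. The other 6 genes were below 1 in these 3 sets of barcodes. From 40000 UMIs the ratio of the sum was 0.706, and at a mitochondrial share of 2 to 5% it was 0.670. Without cluster 7 it was 0.426. Adding the mixed clusters to the class, 3511 barcodes in KPCA.FSTKO_hFSTL3 and 39 in KPCA.FSTKO, gave a log2 ratio of -2.38, against -0.84 for the class alone. The genotype, the clone and the library cannot be told apart here, and each value rests on 1 library.

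The share of genes that were higher differed by gene span, and more so in the comparisons by mitochondrial share, depth and cluster 7 than in that of cancer-like and host barcodes. Of protein-coding genes longer than 500 kb, 97.9% were at least 2 times higher in the highest than in the lowest mitochondrial bin, against 5.11% of genes shorter than 20 kb. For under 5000 against 40000 UMIs or more the shares were 89.9% and 6.27%, and for cluster 7 against the other cancer-like clusters 92.9% and 7.57%. For cancer-like over host barcodes they were 29.1% and 16.6%, while 38.5% of genes over 500 kb were lower in cancer-like barcodes. In the mitochondrial comparison the higher genes were 94 of the 96 over 500 kb, the 7 listed genes of that length included.

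**Figure D5:**
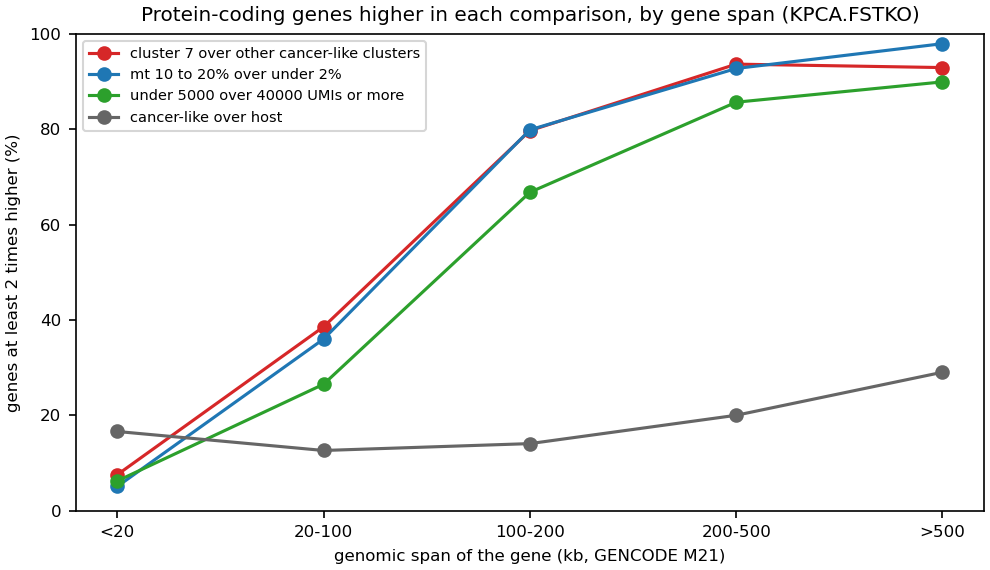
Share of protein-coding genes (%) at least 2 times higher in each of 4 comparisons in KPCA.FSTKO, by genomic span of the gene (kb) in 5 bins; only genes with at least 100 UMIs in a comparison are counted. The shares for cluster 7, for a high mitochondrial share and for low depth go from 5.11 to 7.57% under 20 kb to 89.9 to 97.9% over 500 kb, while that for cancer-like over host goes from 16.6% to 29.1%.

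A list of 40 other long neural genes gave the same contrast. Of the 24 with at least 100 UMIs, 7 were higher and 9 lower in cancer-like than in host barcodes of KPCA.FSTKO, with a median log2 ratio of -0.35, against 0.15 over all genes compared. In the highest mitochondrial bin 10 of 10 were higher, under 5000 UMIs 11 of 12 and in cluster 7 16 of 19. Khdrbs2, an RNA-binding protein of the brain, had 68.8 CPM in cancer-like barcodes against 7.27 CPM in hosts, and Magi2, a synaptic scaffold, 91.2 against 201 CPM. Both were higher in cluster 7, at 238 and 355 CPM.

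Short marker genes of neurons and glia were taken as a further list. The 20 genes of that list together had 53.1 CPM in cancer-like barcodes of KPCA.FSTKO against 109 CPM in hosts, of which Stmn2, a tubulin-binding protein of growing neurites, made up 90.9 CPM (0.416 CPM in cancer-like barcodes). Without Stmn2 the sum of the 19 genes left was 52.7 CPM against 18.4 CPM in hosts, a split made after the values were seen. Of 6 with at least 100 UMIs, 4 were higher in cancer-like barcodes, among them Tubb3 (a neuronal tubulin), Snap25 (a synaptic vesicle fusion protein) and Gap43, and Stmn2 was lower. The median log2 ratio of these 6 was 1.57, against 1.77 for the 9 long genes and 0.15 over all genes compared. Tubb3 was at 32.4 CPM (host 5.57) and at 12.6 CPM in cluster 7, Uchl1 at 8.49 CPM (host 4.46) and 5.14 CPM in cluster 7, and Snap25 at 5.55 CPM (host 1.15) and 17.1 CPM in cluster 7. In the highest mitochondrial bin 0 of 2 were higher and 2, Tubb3 and Uchl1, were lower. Nefm, a neurofilament, was at 0 in the cancer-like class of both libraries.

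The list of 25 relatives and partners of the 9 genes was divided between cancer-like and host barcodes. Of 18 with at least 100 UMIs, 5 were higher and 6 lower in cancer-like than in host barcodes of KPCA.FSTKO. Nav2, a paralog of Nav3 with a span of 701 kb, was at 209.9 CPM (host 50.3) and reached 618 CPM in cluster 7. Rbfox2, the widely expressed paralog of Rbfox1 with a span of 228 kb, was at 148 CPM (host 86.9) and at 481 CPM in cluster 7. Set, the partner of Setbp1 with a span of 15.2 kb, was at 497 CPM (host 218) but at 193 CPM in cluster 7. In cluster 7, 11 of 15 were higher and 2, Raly and Set, lower, with a median log2 ratio of 1.35, against 0.51 over all genes compared. In the highest mitochondrial bin 10 of 13 were higher and the same 2 lower (median 1.57, against 0.38), and under 5000 UMIs 8 of 14 were higher and 0 lower (1.09, against 0.39). Of the nuclear RNA list, 5 of 5 were higher in cluster 7, with Malat1 at 40880.0 against 13037 CPM in the other cancer-like clusters and Neat1 at 3387 against 964 CPM. Between the genotypes, 1 of 15 relatives was higher in KPCA.FSTKO_hFSTL3 (Pcdh7) and 3 were lower (Nkain3, Pcdh10 and Ptprd), and of the long neural genes 3 of 20 were higher and 5 lower.

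The genes outside the list whose level was most like that of the 9 genes together were Lrig1 (Pearson's r 0.964), Dok6 (0.964), Zfhx4 (0.960), Ppp2r2b (0.958) and Aox1 (0.956). These correlations are of log2(CPM + 1) over 23 combinations of cluster and library with at least 50 barcodes, among 15070 genes, and the points share libraries and depth. Lrig1, a membrane regulator of growth factor receptors, had 65.4 CPM in cancer-like barcodes of KPCA.FSTKO against 25.8 CPM in hosts. Dok6, an adaptor of receptor tyrosine kinases, had 55.3 against 14.5 CPM and has a span of 477 kb. Within the 9 genes, the correlation with their sum was 0.770 (Rbfox1) to 0.970 (Pcdh9). Each of the 9 is part of that sum, so these values are high in part by construction.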

How the data were processed

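The authors deposited UMI count matrices of genes by barcodes for each of 2 libraries made with a 10x Genomics 3-prime kit from cells freed with collagenase and DNase. Cell Ranger is given as version 3.1.0 with mm10 in the submitters' processing notes and as 7.2.0 in the matrix header. These versions differ in whether intronic reads are counted by default. Whether they were counted here is not given in the sources used here, and UMIs could not be split into exon and intron. The deposited counts summed to 168214773 and 80391504 UMIs over 7582 and 4244 barcodes.

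Barcodes with over 200 and under 8000 genes and under 20% mitochondrial UMIs were kept. Clusters were made in Seurat 5.3.0 (R 4.3.3, 2000 variable genes without the 9 genes and the gene lists, 10 principal components, 20 neighbours, Louvain resolution 0.8) and named from marker lists. The naming rule was written after tables of the clusters had been seen. Doublets were kept, with barcodes marked by Scrublet left out as an alternative. CPM was computed from the summed UMIs of all barcodes of a class. Genes were compared where they had at least 100 UMIs over both sides, and a ratio of 2 was the size that counted as higher or lower. A count of 0 allows up to 3 counts. Gene spans are from GENCODE M21, which matched 32158 of 32285 genes (99.6%). The tools were scanpy 1.11.5, scipy 1.17.1, numpy 2.4.6, matplotlib 3.10.9 and pandas 2.3.3 in Python 3.11.15. The code for the ratios was run on simulated Poisson counts. Such counts do not carry the spread between barcodes of these data, so they check the arithmetic and not the results.

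The 9 genes and the lists were chosen with earlier results of these data known. The rule for named genes was all 9 genes, counts for each list with values of the 3 genes with most UMIs in cancer-like barcodes of KPCA.FSTKO, and the 5 genes most like the sum. Some genes that the rule names are not reported here. The relatives that differ between genotypes were named after their values were seen. Alternatives were other denominators, means over barcodes, other clusterings, filters and bins, sums without 1 gene, thinning to 1000 UMIs and leaving out Scrublet's or the richest barcodes. Leaving out cluster 7 or 18 in the class comparisons, adding mixed clusters alone, the sum without Stmn2 and the limit to 40000 UMIs or more were chosen after seeing the data.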

Additional observations from a re-analysis of the deposited data

Results flagged for a closer look

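Barcodes outside the comparisons also held UMIs of the 9 genes. In KPCA.FSTKO the 550 barcodes with a mitochondrial share of 20% or more were at 3019 CPM (2950 to 3089) for the genes together, and the 255 barcodes with 8000 genes or more at 939.6 CPM, against 938 CPM over all kept barcodes. In KPCA.FSTKO_hFSTL3 the 97 barcodes with such a mitochondrial share were at 328 CPM (269 to 395) and the 103 with 8000 genes or more at 609.7 CPM, against 212 CPM over all kept barcodes. The mixed clusters, which belong to no class, were at 260.6 CPM in KPCA.FSTKO (39 barcodes) and at 155 CPM in KPCA.FSTKO_hFSTL3 (3511 barcodes).

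The ratio of cancer-like over host level lay in opposite directions in the libraries for Rbfox1 and Nlgn1, with intervals apart from 0 in both. For Rbfox1 the log2 ratio was 1.25 in KPCA.FSTKO and -2.31 in KPCA.FSTKO_hFSTL3, and for Nlgn1 it was 2.28 and -1.55, the latter from 10 cancer-like and 17 host UMIs. For Il1rapl1 it was -0.25 and 0.29, the latter with an interval of -0.04 to 0.62, and for Brinp3 1.74 and -0.17, the latter with an interval of -0.74 to 0.42. With 1 library per genotype these differences were not tested.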

How the results depend on the processing

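No paired analysis was possible because there is 1 library per genotype and no result comes from a test. None of the 5 ratios of the summed level changed direction in the alternatives run. Ratios of genotypes of single genes did in some clusters or sets of barcodes, for Nkain2, Nav3 and Il1rapl1 as given above. Setbp1 did too, at 1.31 (1.06 to 1.59) in cluster 6 against 0.663 over the whole class. The log2 ratio of the summed cancer-like over host level in KPCA.FSTKO was 1.83, and it moved beyond its counting interval in 17 of 23 alternatives. It was 1.955 without mitochondrial, ribosomal and Malat1 UMIs in the denominator, 2.35 as a mean over barcodes, 1.725 and 1.295 at resolutions of 0.4 and 1.2, 1.697 with 20 components, 2.13 without barcodes marked by Scrublet, 2.39 without the 5% richest barcodes, 1.74 with mixed and low-depth clusters counted as cancer-like and 1.75 with every barcode kept. Sums without Nkain2, Pcdh9, Ralyl, Nav3, Rbfox1 and Il1rapl1 gave 1.755, 1.63, 1.77, 1.965, 1.87 and 1.959. It was 2.06 without host cluster 18 and 1.63 without cluster 7. In KPCA.FSTKO_hFSTL3 the ratio of 1.91 became 2.23 as a mean over barcodes, 1.68 and 1.77 at the other resolutions, 2.12 without the richest barcodes, 0.34 with mixed and low-depth clusters, 0.36 with mixed clusters alone, 1.31 with every barcode and 1.31 without cluster 7. The ratio of genotypes, -0.84, became -0.91 with the reduced denominator, -1.175 as a mean over barcodes, -0.93 at a resolution of 0.4, -0.78 with 20 components, -2.31 with mixed and low-depth clusters, -2.38 with mixed clusters alone, -0.88 with every barcode, -1.23 without cluster 7 and -0.50 from 40000 UMIs. The ratio of mitochondrial bins, 2.25, became 2.45 without mitochondrial UMIs in the denominator, 1.31 as a mean over barcodes, 1.15 by quartiles, 1.805 without cluster 7 and 1.29 after thinning. The ratio of depth bins, 2.10, became 1.695 by quartiles and 0.68 without cluster 7. The causes of these shifts were not tested. The 182 cancer-like barcodes of KPCA.FSTKO_hFSTL3 limit its values, 10 UMIs in the case of Nlgn1.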

Other observations

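In stromal-like barcodes of KPCA.FSTKO the summed level of the 9 genes had a Spearman's rho of 0.626 with the share of the nuclear RNA list and of -0.512 with the share of ribosomal proteins (441 barcodes), close to the 0.617 and -0.624 over cancer-like barcodes. In macrophage-like barcodes the same values were 0.074 and 0.007 (959 barcodes). In the mixed clusters of KPCA.FSTKO_hFSTL3 they were 0.264 and -0.001 (3511 barcodes). These are descriptions of barcodes that share a library.

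The short neural and glial genes together had 74.3 CPM in cancer-like barcodes of KPCA.FSTKO_hFSTL3 against 52.5 CPM in hosts, while in KPCA.FSTKO the order was the opposite, with 53.1 and 109 CPM. That order rests on Stmn2, and without it the values were 73.9 and 20.2 CPM in KPCA.FSTKO_hFSTL3 and 52.7 and 18.4 CPM in KPCA.FSTKO. Of the list, Uchl1, a neuronal deubiquitinase, was at 19.4 CPM in cancer-like barcodes of KPCA.FSTKO_hFSTL3 and 8.49 CPM in cancer-like barcodes of KPCA.FSTKO. Magi2, a long neural gene, was at 136 CPM in cancer-like barcodes of KPCA.FSTKO_hFSTL3 and 91.2 CPM in those of KPCA.FSTKO.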
